A study of Mus musculus with 6 samples.

Results

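The interferon-stimulated genes examined here are 38 genes that cells switch on when they sense type I or type II interferon, among them the mitochondrial nucleotide kinase Cmpk2. They were taken as a list of gene names. Each gene was read by its brightest probe set on average, out of those annotated to that gene alone. By this rule 33 of the 38 genes were measured, out of 17097 genes in all, and 48 probe sets carried their names. Oas1a, Gbp6, Isg15, Bst2 and Ifi44 had no such probe set and were not analysed here. The cells came from 3 Klf3-/- and 3 WT male FVB/NJ mice, littermates from crosses of Klf3+/- parents, 12 weeks old and housed at 22 °C. Klf3-/- mice lack the transcriptional repressor KLF3 in every tissue through a neomycin insertion into Klf3, so the deletion was not limited to the sorted cells. Eosinophils were sorted from the stromal vascular fraction (SVF) of inguinal subcutaneous adipose tissue, with a gate on live CD45+ leukocytes that carried CD11b, F4/80 and Siglec-F and scattered much light to the side, and the RNA of each mouse was read on 1 Affymetrix HT MG-430PM array. The comparison asks how the loss of KLF3 bears on the expression of these genes in adipose eosinophils.

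Interferon binds its receptor on the cell surface, the JAK kinases are activated, and a complex that holds STAT2 and IRF9 enters the nucleus and binds the interferon-stimulated response element (ISRE) in the promoters of target genes. Interferon gamma acts mainly through a different element, the gamma-activated site (GAS). The target genes encode proteins that sense foreign nucleic acids, block viral translation, degrade viral RNA, make antiviral nucleotides and feed back on the pathway. In adipose tissue these genes are known to be expressed by resident macrophages, dendritic cells and stromal cells as well as by granulocytes.

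Values are log2 intensities after quantile normalisation between arrays, since the deposited medians spanned 30.3 to 58.7, a 1.94-fold range. Genotypes were compared with limma over all 45037 probe sets with Benjamini-Hochberg adjustment, and no probe set of the table passed an adjusted p of 0.05 (0% called). A background level of 5.10 was set from 44 olfactory receptor probe sets. The 6 probe sets for Klf3 separated the genotypes on every array, 1 being lower and 5 higher in Klf3-/- cells, and they do not check the labels, because no source used here places them relative to the insertion. Of 9 measured eosinophil markers 7 lay below the background level, including Siglecf, Epx, Prg2 and Ccr3, which define the cell type. The summed linear level of the 9 markers was 163 to 208 in Klf3-/- and 191 to 201 in WT. Markers of macrophages, of dendritic cells with MHC class II and of stromal cells were above background on all arrays, except the stromal markers Pi16 and Pdgfra. Their values stand beside the results further on.

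The interferon-stimulated genes showed no common shift between Klf3-/- and WT cells. Klf3-/- cells had higher values for 15 and lower values for 18 of the 33 measured genes, which is 45.5% higher, against 44.8% of all genes. The median log2 fold change (Klf3-/- over WT) was -0.06, against -0.04 over all genes, and single genes ranged between -0.74 for Mx1 and 0.99 for Samd9l. The median size of the change in either direction was 0.23 log2 units, against 0.20 over all genes and 0.22 over the genes above background. On the values as deposited 24 of the 33 genes were higher and 9 lower, where 69.5% of all genes were higher too and the median over all genes was 0.13. Of 12 genes with several probe sets, 9 had them all in 1 direction. None of the 33 passed an adjusted p of 0.05. At an unadjusted p under 0.05 the list held 2 higher genes, Cmpk2 and Samd9l, and 0 lower genes, where 3.61% of all genes were higher and 2.47% lower by the same rule. With the replicate number as a block, since mice of the same number shared part of their variation, Mx1 and Rsad2 were lower at this unadjusted level as well (limma, adjusted p = 0.670 and 0.697), where the block fit called 4.45% of all genes higher and 3.50% lower. Cmpk2 and Samd9l were also the only 2 of the 33 genes whose Klf3-/- arrays all lay above all WT arrays, as 4.84% of all genes did, and Herc6 and Ifit1 were the 2 that lay below throughout, as 6.55% of all genes did. The 95% confidence interval of the log2 fold change included 0 for 31 genes, and for 17 genes it stayed between -1 and 1, so a change of more than 2-fold lay outside it. In bulk RNA of sorted cells, fewer cells of a type and less RNA per cell cannot be told apart.

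**Figure D1:**
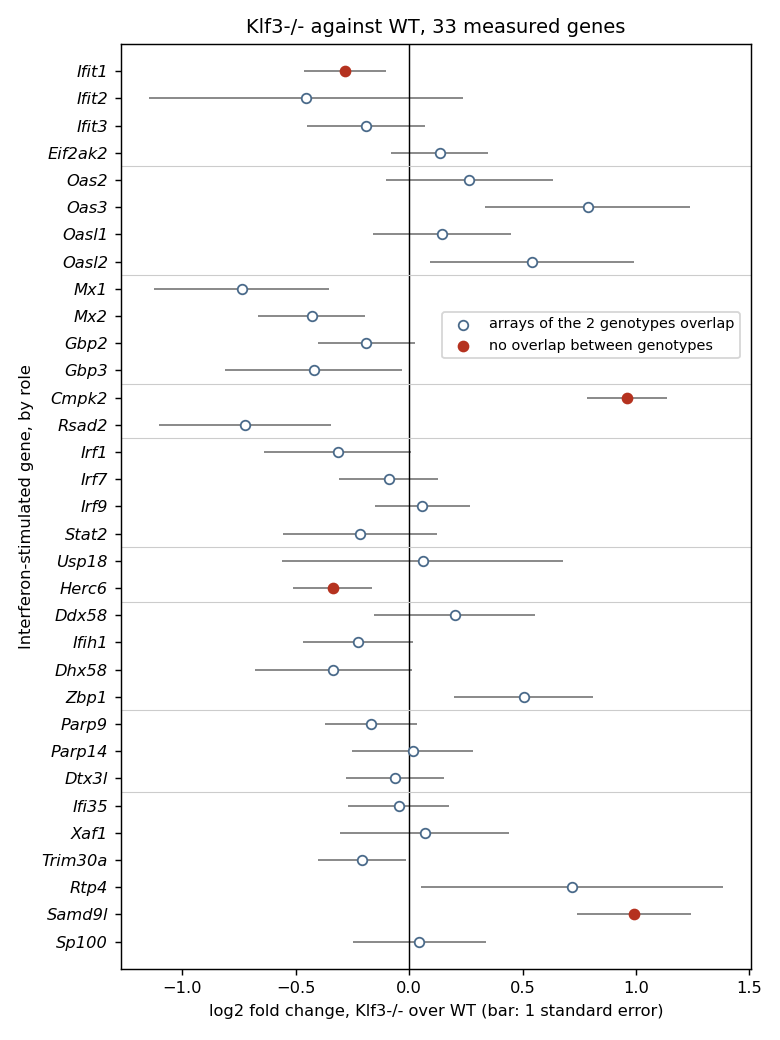
Log2 fold change of each of the 33 measured interferon-stimulated genes, Klf3-/- over WT, with bars of 1 standard error (n = 3 mice per genotype) and genes grouped by role. Filled points mark the 4 genes whose arrays did not overlap between genotypes: Cmpk2 and Samd9l to the right of 0, Herc6 and Ifit1 to the left, and the other 29 genes lie on both sides of 0.

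Cmpk2 encodes the mitochondrial cytidine/uridine monophosphate kinase 2, which supplies nucleotides for mitochondrial DNA synthesis. Its brighter probe set read 7.02, 7.01 and 7.20 in Klf3-/- mice 1 to 3, against 6.20, 5.98 and 6.17 in WT mice 1 to 3. The lowest Klf3-/- array thus lay above the highest WT array, and the spread within each genotype was small (SD 0.11 in Klf3-/- and 0.12 in WT, n = 3 each). The log2 fold change was 0.96 with a standard error of 0.18 and a 95% confidence interval of 0.54 to 1.37 (limma, p = 8.81e-04 and adjusted p = 0.663, and exact two-sided permutation test, p = 0.1, the smallest that 3 mice against 3 allow). A second, dimmer probe set, annotated to the same transcript record, read 6.25, 6.14 and 6.42 in Klf3-/- mice, against 4.34, 3.69 and 4.26 in WT mice. Here the WT arrays lay below the background level and the Klf3-/- arrays above it. With the WT arrays set at that level, this probe set was at least 2.25-fold higher in Klf3-/- cells (limma on the measured values, adjusted p = 0.200). On the deposited linear scale the brighter probe set gave 143, 195 and 111 in Klf3-/- mice and 63.0, 85.3 and 48.1 in WT mice, without overlap. The 2 probe sets shared the direction and the lack of overlap, and the sizes of their changes cannot be compared, since the dimmer one gives only a bound. Over the alternative settings that kept the brighter probe set its log2 fold change lay between 0.88 and 1.20 and the lowest adjusted p was 0.489. With both probe sets averaged, the dim one included, the lowest adjusted p was 0.204. With Cmpk2 left out, the list held 14 higher and 18 lower genes and 1 gene at an unadjusted p under 0.05.

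Rsad2, the neighbour of Cmpk2 on chromosome 12, encodes viperin, the radical SAM enzyme that turns CTP into an antiviral nucleotide. The 2 genes are known to be induced together by interferon. Rsad2 read 5.34, 6.06 and 6.57 in Klf3-/- mice, against 6.27, 7.27 and 6.60 in WT mice. WT mouse 2 was the highest, Klf3-/- mouse 1 the lowest, and the genotypes overlapped. The log2 fold change was -0.72 with a standard error of 0.38 (limma, adjusted p = 0.910). Each Klf3-/- mouse lay below the WT mouse of its number, with differences of -0.93, -1.21 and -0.034, and with the replicate block the adjusted p was 0.697. The other 2 probe sets of Rsad2 were dim, each above the background level in 1 of 3 Klf3-/- arrays, and in 3 and 2 of 3 WT arrays, so they give no exact fold. Their measured means were 4.79 and 4.43 in Klf3-/- and 5.92 and 5.38 in WT, with overlapping arrays. In both, each Klf3-/- mouse again lay below the WT mouse of its number, and the adjusted p was 0.910 for each, or 0.578 and 0.583 with the block (limma). WT mouse 2 was the highest array in all 3 probe sets. In their brightest probe sets the neighbours thus had opposite signs, with neither past the test, and the difference between the 2 genes was not tested.

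**Figure D2:**
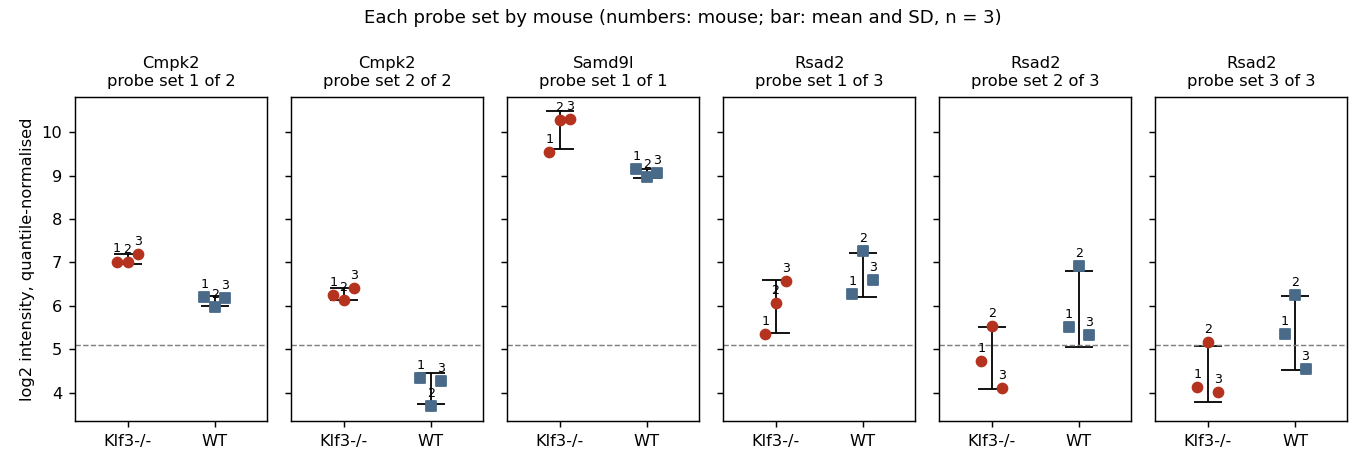
Log2 intensity of each probe set of Cmpk2, Samd9l and Rsad2 in the 3 Klf3-/- mice (left, circles) and the 3 WT mice (right, squares), with mouse numbers, mean and SD (n = 3) and the background level of 5.10 as a dashed line. Klf3-/- circles lie above the WT squares in both probe sets of Cmpk2 and in Samd9l, and the genotypes overlap in the 3 probe sets of Rsad2.

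Printed here are the promoter windows of Cmpk2, Samd9l and Ifit1, which separated the genotypes, and of Rsad2, which went against its neighbour Cmpk2. The window of Herc6, which also separated the genotypes, was searched and is not printed. Each window runs from 250 bases before to 50 bases after the annotated start (RefSeq, GRCm38.p6, 5′ to 3′ on the gene's strand). Capitals mark the letters of the ISRE core, GAAANNGAAA, found on either strand. The windows are Cmpk2 at chr12:26468965-26469264 on the plus strand, Rsad2 at chr12:26456403-26456702 on the minus strand, Samd9l at chr6:3399522-3399821 on the minus strand and Ifit1 at chr19:34640639-34640938 on the plus strand.
Cmpk2: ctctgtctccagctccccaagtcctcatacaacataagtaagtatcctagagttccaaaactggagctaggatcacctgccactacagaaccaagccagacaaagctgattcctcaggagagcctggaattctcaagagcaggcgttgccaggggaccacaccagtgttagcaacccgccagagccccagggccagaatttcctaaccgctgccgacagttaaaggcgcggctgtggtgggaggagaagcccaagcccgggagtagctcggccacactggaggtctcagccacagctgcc
Rsad2: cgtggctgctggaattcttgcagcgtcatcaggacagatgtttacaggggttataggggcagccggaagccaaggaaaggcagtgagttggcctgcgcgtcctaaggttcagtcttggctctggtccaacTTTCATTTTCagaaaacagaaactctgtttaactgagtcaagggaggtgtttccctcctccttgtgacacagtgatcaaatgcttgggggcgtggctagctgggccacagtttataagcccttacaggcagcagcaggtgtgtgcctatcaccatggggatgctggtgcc
Samd9l: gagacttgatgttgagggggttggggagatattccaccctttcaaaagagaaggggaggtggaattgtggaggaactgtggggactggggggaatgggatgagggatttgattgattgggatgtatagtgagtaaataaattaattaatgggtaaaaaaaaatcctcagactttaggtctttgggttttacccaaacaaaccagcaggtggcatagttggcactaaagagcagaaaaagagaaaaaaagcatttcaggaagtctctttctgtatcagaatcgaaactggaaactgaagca
Ifit1: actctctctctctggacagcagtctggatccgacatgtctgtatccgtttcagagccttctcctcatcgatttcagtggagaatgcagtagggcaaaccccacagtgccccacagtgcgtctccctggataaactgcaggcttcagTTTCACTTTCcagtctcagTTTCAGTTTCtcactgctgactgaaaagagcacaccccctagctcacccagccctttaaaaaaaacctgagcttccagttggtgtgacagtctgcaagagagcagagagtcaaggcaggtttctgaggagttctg

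The windows of Cmpk2 and Samd9l, the 2 genes that were higher without overlap, held no ISRE core in these letters. Rsad2 held 1, starting at position -120 from the start site. Of the genes that were lower without overlap, Ifit1 held 2, at positions -104 and -85, and Herc6 held none. RefSeq gave a window for 28 of the 38 listed genes, and 14 of these (50%) held the ISRE core, against 3.99% of 27025 genes. Among the measured genes with a window, the 11 with the ISRE core split into 3 higher and 8 lower ones (median log2 fold change -0.21) and the 13 without it into 7 higher and 6 lower ones (median 0.04). The GAS letters TTCNNNGAA, searched on either strand, were in 6 of the 28 windows (21.4%), against 9.55% of all genes. The letters CACCC, which KLF factors are known to bind, were in 22 of the 28 windows on either strand (78.6%), against 59.8% of all genes. Cmpk2 and Rsad2 held no CACCC, Samd9l and Herc6 held 1 each and Ifit1 held 2. The ISRE and GAS letters can overlap, and a match of letters is no evidence of binding.

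Samd9l encodes a large cytoplasmic protein that restrains cell proliferation and poxvirus replication. It read 9.55, 10.28 and 10.31 in Klf3-/- mice, against 9.15, 8.95 and 9.05 in WT mice. All Klf3-/- arrays were above all WT arrays, with Klf3-/- mouse 1 nearest to them. The log2 fold change was 0.99 with a standard error of 0.25 and a 95% confidence interval of 0.40 to 1.58 (limma, p = 0.00519 and adjusted p = 0.781, and exact two-sided permutation test, p = 0.1). The order also held on the deposited linear scale, with 793, 1890 and 950 in Klf3-/- mice and 483, 779 and 324 in WT mice, where the margin between the lowest Klf3-/- and the highest WT array was narrow. The remaining 5 measured genes among the unclassed effectors ran between -0.21 for Trim30a, a feedback regulator of inflammatory signalling, and 0.72 for Rtp4, a receptor chaperone that dampens interferon responses. Rtp4 overlapped widely, at 6.47, 7.33 and 8.06 in Klf3-/- mice and 7.03, 5.13 and 7.55 in WT mice, and WT mouse 2 was its lowest array. The second probe set of Rtp4 was above background in 0 Klf3-/- arrays and 1 WT array. Its measured means were 4.82 in Klf3-/- and 4.91 in WT, so it gives no exact fold. The second probe set of Trim30a, above background on every array, gave -0.54 (limma adjusted p = 0.910). Ifi35, the apoptosis-promoting Xaf1 and the nuclear body protein Sp100 had log2 fold changes of -0.05, 0.07 and 0.04.

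The sensors of foreign nucleic acid gave no common direction. Ddx58 (RIG-I) and Ifih1 (MDA5), which recognise viral RNA in the cytoplasm, had log2 fold changes of 0.20 and -0.23, and Dhx58 (LGP2), their regulator, -0.33. The genotypes overlapped in all 3. Ddx58 was read by 3 probe sets, and the second gave a log2 fold change of -0.06. The dimmest was above background in all 3 Klf3-/- arrays and in 1 of 3 WT arrays, with measured means of 5.86 in Klf3-/- and 4.99 in WT, so its fold is not exact (limma, unadjusted p under 0.05, adjusted p = 0.868). Zbp1, a sensor of Z-form nucleic acid that can start necroptosis, had the smallest p of the class and read 7.77, 7.81 and 7.28 in Klf3-/- mice, against 7.72, 6.81 and 6.82 in WT mice. WT mouse 1 lay within the Klf3-/- range and the other WT mice below it (log2 fold change 0.50, standard error 0.31, limma adjusted p = 0.917). Its second probe set gave 0.49.

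The transcription factors that carry the interferon signal overlapped between genotypes. Irf1, an early target of interferon gamma and one of the 2 brightest members on average, read 9.85, 10.08 and 9.63 in Klf3-/- mice, against 10.12, 10.80 and 9.58 in WT mice. Its highest and lowest arrays were both WT, so the log2 fold change of -0.31 stood within the WT spread (standard error 0.32, limma adjusted p = 0.954). Irf7, the factor that amplifies type I interferon production, read 6.94, 6.89 and 7.06 in Klf3-/- mice, against 7.31, 7.17 and 6.68 in WT mice. The log2 fold change was -0.09, with a 95% confidence interval of -0.60 to 0.42. Stat2 and Irf9 are subunits of the complex that binds the ISRE. Stat2 read 6.66, 7.86 and 7.60 in Klf3-/- mice and 7.63, 7.85 and 7.30 in WT mice, where Klf3-/- mouse 1 was lowest. Irf9 read 7.85, 8.29 and 7.76 in Klf3-/- mice and 8.04, 7.86 and 7.83 in WT mice. Their log2 fold changes were -0.22 (95% confidence interval -1.01 to 0.58) and 0.06 (-0.43 to 0.55). In their brightest probe sets the signs of Irf7 and Stat2 turned on the values as deposited. A second, dimmer probe set of Stat2 was above background on every array. It gave -0.53 (limma adjusted p = 0.910), and -0.27 on the values as deposited.

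The 4 measured genes of the OAS family, enzymes whose product activates RNase L and their relatives, were all higher in Klf3-/- cells under every scaling, and none passed the test. The log2 fold changes were 0.27 for Oas2, 0.15 for Oasl1, which was above background in 1 array of each genotype, and 0.54 for Oasl2, above it in 2 of each. Oas3 read 4.07, 4.16 and 5.73 in Klf3-/- mice, against 4.15, 3.88 and 3.57 in WT mice. A single array, Klf3-/- mouse 3, held it above the background level, and the other arrays lay together below it, so no fold is given (limma, adjusted p = 0.910). The same mouse was the highest array for Oas2, Oasl1 and Oasl2, at 7.10, 5.32 and 6.73. The 4 genes were thus highest in 1 Klf3-/- mouse, and without this mouse 2 of them were higher and 2 lower. Without WT mouse 2 or without WT mouse 3 the split was 3 higher and 1 lower. The summed linear level of 11 macrophage markers was also highest in Klf3-/- mouse 3 (28400, against 8895 to 17086 in WT), and its part in these values was not tested. The direction of the 4 genes did not extend to all OAS genes. In the further list described below, Oas1b had a log2 fold change of 0.11, and Oas1c and Oas1g had -0.17 each. The signs of Oas1c and Oas1g turned on the values as deposited.

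The 4 measured genes of the GTPase class, whose proteins trap viral capsids or attack the membranes around intracellular microbes, lay the other way. Mx1, Mx2, Gbp2 and Gbp3 were all lower in Klf3-/- cells, though Gbp2 stood at 0.0017 on the values as deposited. The log2 fold changes of Mx1, Gbp2 and Gbp3 were -0.74, -0.19 and -0.42. Mx2 was above background in 0 Klf3-/- and 2 WT arrays. With its Klf3-/- arrays set at the background level, the WT mean of Mx2 was 1.15-fold higher. The genotypes overlapped on the measured values of Mx2, with a 95% confidence interval of -0.98 to 0.12, so a lower level in Klf3-/- cells is not established. None of the 4 genes passed the test, and leaving out any 1 array kept all 4 lower. Mx1 read 7.68, 8.22 and 7.54 in Klf3-/- mice, against 8.36, 9.36 and 7.94 in WT mice. Each Klf3-/- array was below the WT array of its own number, but Klf3-/- mouse 2 was above WT mouse 3 (standard error 0.39, limma adjusted p = 0.910). Most inbred laboratory mouse strains are known to carry a defective Mx1 allele, and the array reads transcript only. Gbp2, the other of the 2 brightest members on average, read 9.92, 9.76 and 9.57 in Klf3-/- mice, against 10.22, 9.93 and 9.68 in WT mice. The ranges overlapped, and the 95% confidence interval was -0.69 to 0.31. The direction of these 4 genes did not extend to all Gbp genes. In the further list described below, Gbp4 and Gbp7 had log2 fold changes of 0.52 and 0.05, and Gbp8 had -1.13. The genotypes overlapped in each of them.

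Genes that block viral translation were mixed. Ifit1, whose protein binds viral RNA that lacks a methylated cap, read 5.06, 5.18 and 5.17 in Klf3-/- mice, against 5.59, 5.25 and 5.41 in WT mice. All Klf3-/- arrays were below all WT arrays, by a small margin and near the background level (log2 fold change -0.28, standard error 0.18, limma adjusted p = 0.921), and the genotypes overlapped on the values as deposited. Ifit2 and Ifit3, its relatives, had log2 fold changes of -0.45 and -0.19, and Eif2ak2 (PKR), the kinase that halts translation on double-stranded RNA, 0.13. Ifit2 had the largest standard error of the 33 genes (0.69) and ran between 4.89 and 7.41 in Klf3-/- mice and between 5.71 and 7.54 in WT mice.

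Of the ISG15 system, which attaches a ubiquitin-like protein to new proteins, Herc6 and Usp18 were measured. Herc6, the main ISG15 ligase of mice, read 7.38, 7.39 and 7.58 in Klf3-/- mice, against 7.88, 7.73 and 7.75 in WT mice. The Klf3-/- arrays all lay below the WT arrays (log2 fold change -0.34, standard error 0.17, limma adjusted p = 0.910), and they overlapped on the values as deposited. Usp18, which removes ISG15 and blocks the receptor IFNAR2, read 5.75, 7.10 and 5.97 in Klf3-/- mice, against 5.85, 7.54 and 5.25 in WT mice. Mouse 2 was the highest in both genotypes, and the log2 fold change was 0.06. Parp9 and Dtx3l form a complex that acts on histones, and Parp14 is a related ADP-ribosyltransferase. Parp9 read 8.15, 8.03 and 8.48 in Klf3-/- mice and 8.43, 8.22 and 8.51 in WT mice. The genotypes overlapped, and the log2 fold changes of Parp9, Dtx3l and Parp14, which lie side by side on chromosome 16, were -0.17, -0.06 and 0.02.

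**Figure D3:**
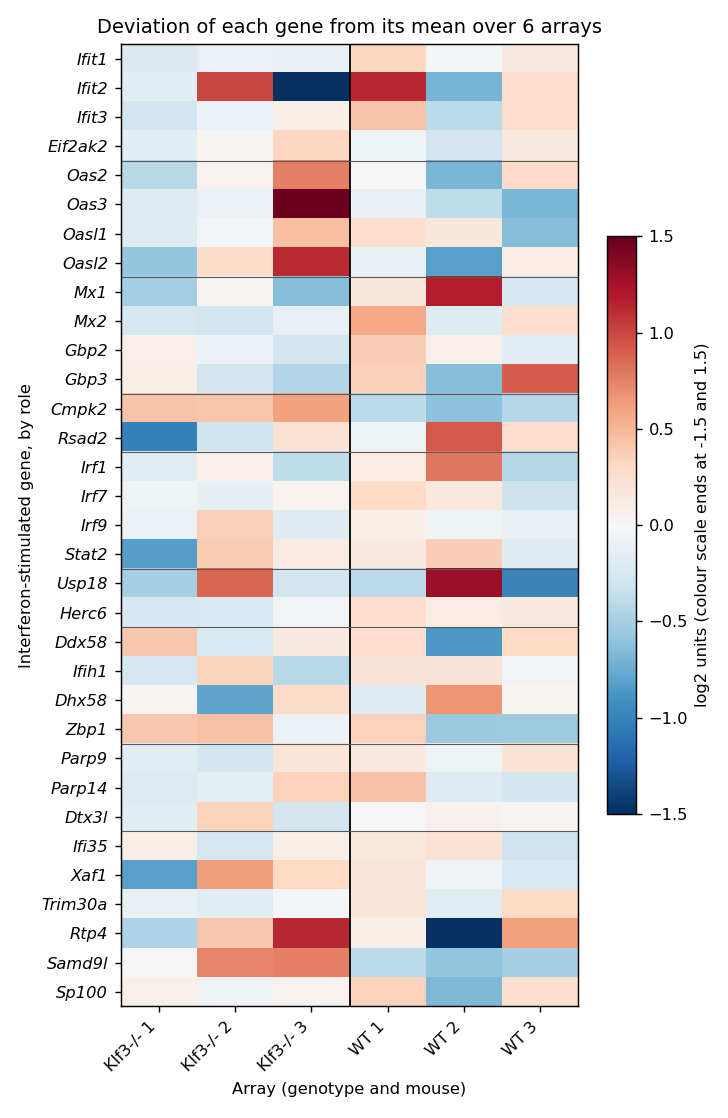
Deviation of each of the 33 genes from its own mean over the 6 arrays, in log2 units, with the 3 Klf3-/- arrays left of the 3 WT arrays and genes grouped by role. Cmpk2 and Samd9l are the rows that are red or near white in all Klf3-/- arrays and blue in all WT arrays, while Oas3 and Rtp4 take their highest value in Klf3-/- mouse 3 and Mx1, Rsad2, Irf1 and Usp18 theirs in WT mouse 2.

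Across mice the genes did not move as 1 block. Of the 30 genes above background, the highest of the 6 arrays was Klf3-/- mouse 1 for 1 gene, mouse 2 for 6 and mouse 3 for 6, against WT mouse 1 for 8, mouse 2 for 6 and mouse 3 for 3. The lowest array was Klf3-/- mouse 1 for 5 genes, mouse 2 for 2 and mouse 3 for 6, against WT mouse 1 for 0, mouse 2 for 12 and mouse 3 for 5. WT mouse 2 was thus the highest array for 20% of these genes, against 21.2% of all genes above background, and the lowest for 40%, against 20.7%. Klf3-/- mouse 1 was the highest for 3.33%, against 12.9%, and WT mouse 1 the lowest for 0%, against 12.4%. The median deviation of the 30 genes was -0.16, 0.04 and 0.07 in Klf3-/- mice 1 to 3, against 0.17, -0.08 and 0.04 in WT mice 1 to 3. The median SD between mice was 0.30 in Klf3-/- and 0.36 in WT, against 0.32 in each genotype over all genes above background, so the genes varied between mice about as much as other genes did.

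Upstream of these targets, the interferons themselves were dim. Of 11 listed ligands 8 were measured and 3 lay above background. Ifnb1, the first type I interferon made on infection, averaged 3.96 in Klf3-/- and 4.04 in WT (SD 0.09 and 0.12, n = 3 each), below the background level. Ifna5 read 5.13, 5.03 and 4.88 in Klf3-/- mice, against 5.36, 5.51 and 5.59 in WT mice. It was the 1 ligand lower at an unadjusted p under 0.05 (log2 fold change -0.47, limma adjusted p = 0.868), above background in 1 Klf3-/- and 3 WT arrays, and with the replicate block the count of such ligands was 0. Ifng, the type II interferon of T and NK cells, had a log2 fold change of -0.70 with overlapping arrays and was above background in 2 arrays of each genotype, and Ifna1 had 0.33. Ifna2 lay below background on every array. Alpha interferons are close copies of each other, so their probe sets may share signal.

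Of 20 listed receptors and signal carriers 19 were measured and 18 lay above background, and none passed the test. Ifnar1 and Ifnar2, the subunits of the type I receptor, had log2 fold changes of -0.10 (95% confidence interval -0.59 to 0.40) and -0.12 (-0.59 to 0.36), and Ifngr1 and Ifngr2, those of the interferon gamma receptor, 0.05 (-0.39 to 0.48) and -0.40 (-1.02 to 0.22). The 19 genes split into 7 higher and 12 lower ones, and on the values as deposited into 11 higher and 8 lower ones, so the majority turned with the scaling. Of these 0 reached an unadjusted p under 0.05 in either direction (1 higher without WT mouse 1). The smallest p-values belonged to Socs3, a feedback inhibitor of JAK signalling (0.56), Irf8, a factor of monocytes and dendritic cells (-0.71), Ifnlr1, the interferon lambda receptor (below background in all Klf3-/- and 2 WT arrays) and Ptpn6, the phosphatase SHP-1 (-0.38), each with a limma adjusted p of 0.910. Of 10 genes that induce interferon 7 were measured, of which 1 was higher and 6 lower, with 0 at an unadjusted p under 0.05 (1 lower without Klf3-/- mouse 1). The split was 4 higher and 3 lower on the values as deposited, 3 higher and 4 lower without Klf3-/- mouse 3 or without WT mouse 2, and 2 higher and 5 lower without Klf3-/- mouse 1 or 2 or without WT mouse 1. Among them Tlr9, the receptor for unmethylated DNA, had a log2 fold change of -0.72, Tlr3, the receptor for double-stranded RNA, -0.37, Mavs, the adaptor of RIG-I and MDA5, -0.45 and Tlr7, the receptor for single-stranded RNA, 0.41. The signs of Ifnar1 and Ifnar2 turned on the values as deposited.

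A further list of 70 interferon-stimulated genes outside the 38, of which 60 were measured, lay in both directions. In Klf3-/- cells 36 of them were higher and 24 lower. Their median log2 fold change was 0.11, against -0.04 over all genes, and on the values as deposited 47 were higher and 13 lower. The list held 5 higher and 3 lower genes at an unadjusted p under 0.05, where the same rule called 3.61% and 2.47% of all genes, and none passed adjustment. With the replicate block these counts were 7 and 5, where the block fit called 4.45% and 3.50% of all genes. Leaving out single arrays gave 1 to 7 higher genes (1 without Klf3-/- mouse 3, 2 without Klf3-/- mouse 2, 3 without WT mouse 1) and 2 to 5 lower genes (5 without WT mouse 2), and without WT mouse 2 the split of the 60 was 28 higher and 32 lower. Ifi27l2a, a small hydrophobic interferon-induced protein, read 6.87, 7.45 and 8.14 in Klf3-/- mice, against 5.93, 5.42 and 5.73 in WT mice. All Klf3-/- arrays lay above all WT arrays, as 4.84% of all genes did, and the order held on the deposited values (log2 fold change 1.79, standard error 0.34, limma adjusted p = 0.663). Ifitm1, which blocks virus entry, had a log2 fold change of 0.62 (limma adjusted p = 0.868). Its relative Ifitm2 had 0.72, and Ifi27 and Slfn5 had 0.63 and 0.62 (limma adjusted p = 0.888 to 0.901). These 3, Gbp4, Gbp7, Gbp8, Oas1b, Oas1c and Oas1g are named after their values were seen. Cxcl9 and Cxcl10, chemokines that interferon gamma induces and that draw T cells, lay below WT in all Klf3-/- arrays, as 6.55% of all genes did. Cxcl9 read 8.65, 7.95 and 7.59 in Klf3-/- mice and 10.17, 9.97 and 9.43 in WT mice. Cxcl10 read 6.21, 6.20 and 7.19 in Klf3-/- mice and 7.33, 8.17 and 7.75 in WT mice. On the values as deposited Cxcl9 overlapped. The log2 fold changes of Cxcl9 and Cxcl10 were -1.80 and -1.22 (limma adjusted p = 0.663 and 0.849), and Gbp8 had -1.13 with overlapping arrays (adjusted p = 0.901). No separate list of interferon gamma targets was examined, so Cxcl9 and Cxcl10 do not stand for the response to it.

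**Figure D4:**
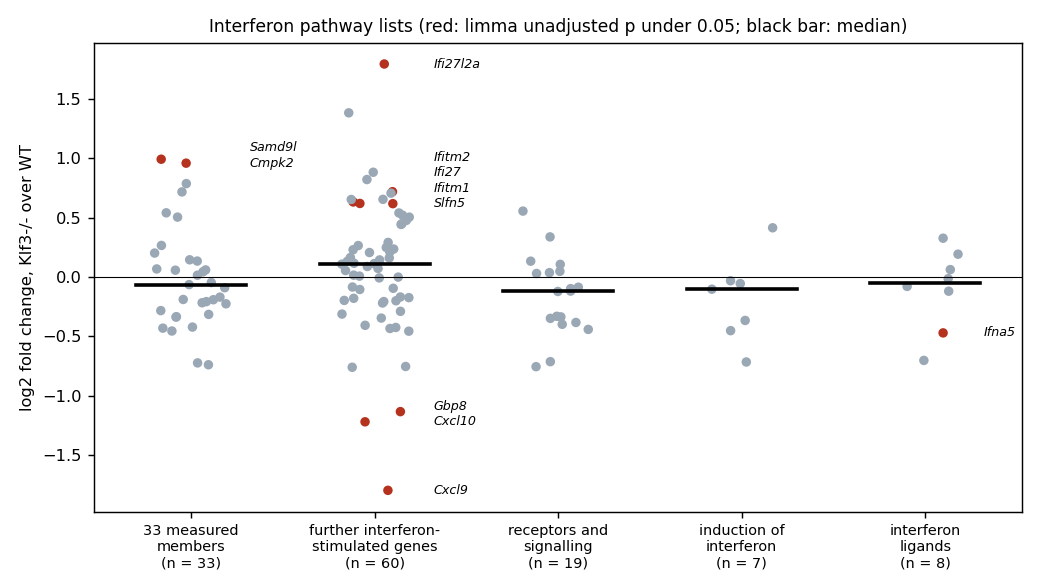
Log2 fold change (Klf3-/- over WT) of each measured gene of the 33 members, the 60 further interferon-stimulated genes, 19 receptors and signal carriers, 7 inducers and 8 ligands, with the median of each list as a bar. Red points have an unadjusted p under 0.05: 2 members, both higher, 5 higher and 3 lower further genes, 1 lower ligand, and none among the receptors and inducers.

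Markers of other cell types differed between the arrays beside these genes. All 10 stromal markers were higher in Klf3-/- cells, 4 of them at an unadjusted p under 0.05, where 3.61% of all genes were, with a summed linear level of 15742 to 25649 in Klf3-/- and 9768 to 16917 in WT. Without single arrays the count at that level was 2 to 5 (2 without WT mouse 1 or 2), and without Klf3-/- mouse 2 the split was 8 higher and 2 lower. The stromal markers Pi16 and Pdgfra were above background in 0 and 1 of 3 WT arrays, so their folds are not exact. Of 11 macrophage markers 10 were higher and 1 at an unadjusted p under 0.05, summing to 12300.2 to 28400 in Klf3-/- and 8895 to 17086 in WT. Their median log2 fold change was 0.21, with Lyve1 the highest at 2.21 and Mertk the lowest at -0.80. Without Klf3-/- mouse 3 only 4 of the 11 were higher, and without WT mouse 2 only 5. Of 8 dendritic cell and MHC class II markers 7 were lower and 2 at that level, where 2.47% of all genes were lower. They summed to 11994 to 15343 in Klf3-/- and 16119 to 19523 in WT, so the ranges did not overlap. The MHC class II genes H2-Aa and H2-Ab1 weighed most in this sum, with means of 13.08 and 11.78 in Klf3-/- and 13.29 and 12.22 in WT. The sum thus says little about the other markers of the list. Of 6 markers of plasmacytoid dendritic cells, the main producers of type I interferon, 5 were lower and 0 at that level, summing to 785 to 1112 in Klf3-/- and 991 to 1196 in WT, and on the values as deposited 5 were higher and 1 lower. Without Klf3-/- mouse 2 this list split into 3 higher and 3 lower. The macrophage and stromal sums overlapped between genotypes, and no marker of these 4 lists passed adjustment. WT mouse 2, the lowest array for 12 of the 30 interferon-stimulated genes above background and the highest for Mx1, Rsad2, Irf1 and Usp18, had the lowest macrophage sum (8895) and the highest dendritic cell and MHC class II sum (19523) of the 6 arrays. In the smaller lists 2 of 4 monocyte, 4 of 5 neutrophil, 5 of 7 T and NK cell, 0 of 3 B cell and 0 of 6 endothelial markers were higher, with 1 neutrophil and 1 T and NK cell marker at an unadjusted p under 0.05. Of the endothelial markers 6 of 6 were higher without Klf3-/- mouse 2, 5 without WT mouse 3, 2 without WT mouse 1 and 3 on the values as deposited. Of the T and NK cell markers 2 were higher without WT mouse 2, 3 without Klf3-/- mouse 1 and 7 without WT mouse 3 or on the values as deposited. Of the B cell markers 1 was higher without Klf3-/- mouse 2 or on the values as deposited, of the monocyte markers 3 without WT mouse 2, and the neutrophil split held without each array, with 3 markers at that level without WT mouse 3. The part of these cells in the values of Cmpk2, Samd9l, Ifi27l2a, Cxcl9 and Cxcl10 was not tested.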

How the data were processed

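Eosinophils were sorted from the subcut SVF of 3 Klf3-/- and 3 WT mice, and each mouse gave 1 array. RNA (Qiagen RNeasy Micro Kit) was amplified with Affymetrix's Pico Kit for 3′ IVT arrays. In Partek Genomics Suite the authors made, and then deposited, linear intensity values of 45037 probe sets, 1 column per mouse. A legend of the study names RMA normalisation, and no source used here tells which of its steps were applied. The arrays shared no common scale, so log2 values were quantile-normalised across the 6 arrays, which fixes relative and not absolute levels.

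Probe sets were named through the platform annotation, in which 28898 had 1 symbol, 551 several and 15588 none. The brightest probe set stood for each of 17097 genes. As no detection calls were used, background was set at log2 5.10 (34.2 on the linear scale), the 95th percentile over 44 probe sets of olfactory receptors. Genotype was the only term of the model (limma 3.58.1, lmFit and eBayes, R 4.3.3), with Benjamini-Hochberg adjustment over all 45037 probe sets and a threshold of 0.05. The two-sided exact permutation test of a single gene cannot go below p = 0.1 with 3 mice against 3. The fit was tested on simulated data before use. The number of arrays limits the precision.

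The 38 genes, the role classes and the pathway and marker lists were chosen with earlier results of these data known. Genes named with the value in every array were those without overlap between genotypes or with an unadjusted p under 0.05, the gene with the smallest p in each role class, the 2 brightest on average, and Cmpk2, Rsad2, Irf7, Stat2 and Irf9 (the rule also named Isg15, which had no probe set of its own), with Rtp4 and Usp18 added after their values were seen. In the pathway lists they were the 4 with the smallest p and the interferon receptors.

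Per the labels the genotypes were matched for litter, and no source used here ties a mouse number to a litter. Same-numbered mice of the 2 genotypes deviated together from their genotype means (r = 0.17, 0.23 and 0.21 for numbers 1 to 3), so a replicate block was fitted as an alternative. Where every array of 1 genotype lay below background, that genotype was set at the background level and the fold given as a bound. Others were the values as deposited, median centring, trend and robust fitting, one-way analysis of variance per probe set, a filter on dim probe sets, averaging a gene's probe sets, a threshold of 0.1 and leaving out each array. Counts of the role, pathway and marker lists without each array and with the block were added after the data were seen. The methods name an analysis of variance with a second factor that no source used here names. Promoter windows were taken from RefSeq (GRCm38.p6) by gene symbol and searched for fixed letters on both strands. Figures were drawn with matplotlib 3.10.9.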

Additional observations from a re-analysis of the deposited data

How the results depend on the processing

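None of the 33 genes passed an adjusted p of 0.05 under any setting, nor at an adjusted p of 0.1 (limma), and 2 or 3 genes were higher at an unadjusted p under 0.05. The count of genes lower at that level was 0 in the reported fit, 2 with the replicate block, 1 in one-way analysis of variance per probe set, 1 with a gene's probe sets averaged, and 0 to 2 when single arrays were left out (1 without Klf3-/- mouse 3, 2 without WT mouse 2, 1 without WT mouse 3). Genes with every Klf3-/- array above every WT array numbered 2 to 5 when single arrays were left out (5 without Klf3-/- mouse 1, 4 without WT mouse 1, 3 without Klf3-/- mouse 3). Genes with every Klf3-/- array below every WT array numbered 0 on the values as deposited and 2 to 7 when single arrays were left out (5 without Klf3-/- mouse 2 or 3, 7 without WT mouse 2 or 3). With fewer arrays more genes separate by construction. Of 181 gene values under alternatives for the 14 named genes, 173 kept their direction. The signs turned on the values as deposited for Parp9 (0.050), Gbp2 (0.0017), Irf7 (0.14) and Stat2 (0.0097), where the median over all genes was 0.13 and that of the members 0.16. With single arrays left out, Irf1 lay between -0.61 and 0.0022 (highest without WT mouse 2), Irf7 between -0.28 and 0.037 (highest without WT mouse 1), Stat2 between -0.46 and 0.14 (highest without Klf3-/- mouse 1) and Irf9 between -0.10 and 0.16 (lowest without Klf3-/- mouse 2). Cmpk2 lay between 0.88 and 1.00 and Samd9l between 0.86 and 1.24 in these fits. The block changed no other call among the 33 genes. The causes were not tested. Depth of signal limits Mx2, Oas3 and Oasl1, whose means lay below the background level.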
